A study of Mus musculus with 16 samples.

Results

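The genes described here are the glutathione, thioredoxin and antioxidant enzymes of mouse spinal cord: glutathione S-transferases, glutathione peroxidases, the enzymes that make and reduce glutathione, peroxiredoxins, thioredoxins with their reductases and relatives, and catalase, superoxide dismutases, heme oxygenases, Nqo1 and Idh1. They were chosen by gene symbol, from probe sets that the platform annotation gives a single symbol, and no measured value entered the rule. Earlier results of these data were known when the choice was made. The choice holds 68 probe sets of 51 genes, out of 8251 genes with such a probe set. Of the 51 genes, 44 were bright enough to be tested, and 7 (Gpx5, Gpx7, Gsta1, Gsta3, Gstm6, Mgst2 and Nqo1) lay below the filter on dim probe sets. A gene with several probe sets was tested on the brightest, and the values of its other sets are given with it.

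Glutathione is a small peptide whose cysteine thiol donates electrons, and glutathione peroxidases use it to reduce hydrogen peroxide and lipid peroxides. Glutathione S-transferases couple it to reactive compounds, and glutathione reductase, Gsr, restores the oxidised form with NADPH. Thioredoxins are a parallel system, kept reduced by the thioredoxin reductases, and they supply the peroxiredoxins. In the spinal cord both systems are known for protecting neurons and myelin, and astrocytes are known to supply neurons with precursors of glutathione.

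Spinal cord RNA was hybridised to 16 arrays of 1 colour, which give 1 intensity per probe set. The spastic group, mice of the spastic line, had 6 arrays of 5 titled samples, from 2 to 6 months of age. The B6C3Fe group, titled by a hybrid mouse stock, had 2 arrays of 1 titled sample, male and 1 month old. The control group had 8 arrays of 4 titled samples, a female and a male at 9 and at 12 months. The titles do not give the genotype of the controls or say whether arrays a and b of a title share an animal or an RNA extract. Arrays of a title were therefore averaged, and p-values measure the spread between titled samples. The spastic samples other than the one titled Spa-M are single arrays, while every other sample is a mean of 2 arrays. The fit gave all samples equal weight, so this unequal precision was not modelled. The spastic mutation lies in Glrb, the beta subunit of the glycine receptor, and Glrb had log2 intensities of 9.92 to 11.11 on the spastic arrays, 12.92 to 12.98 on the B6C3Fe arrays and 12.70 to 13.30 on the control arrays. No spastic sample was as old as any control and no B6C3Fe array was as old as either. Genotype and age therefore cannot be told apart in spastic minus control or spastic minus B6C3Fe. The B6C3Fe arrays alone are titled by a stock, so stock and age cannot be told apart in B6C3Fe minus control. Nor can stock be told apart from genotype and age in spastic minus B6C3Fe. The 2 spastic arrays titled male (3 months, titled sev, and 3+ months) had Xist at 10.37 and 10.54 and Eif2s3y at the floor, the pattern of the arrays titled female, so these 2 libraries go against their titled sex. All 6 spastic arrays thus had the female pattern and both B6C3Fe arrays the male one, so sex and group cannot be told apart in spastic minus B6C3Fe, and the term for titled sex in the fit rests on titles that these 2 libraries go against. Markers of neurons, astrocytes and oligodendrocytes were measured on every array, with 0 of each list at the floor throughout a group.

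Between spastic and control cords, 9 of the 44 tested members passed the test, 5 higher and 4 lower (limma, Benjamini-Hochberg adjusted p under 0.05 over all 6427 features tested). The background in this comparison was 19.8% of features called, and the members' share was 20.5%, which is near it. Txnip, Txnrd3, Txnl4a, Gsr and Hmox2 rose, and Idh1, Mgst1, Txndc17 and Gstk1 fell. The median log2 difference of the members was -0.02, as for all features, and the median size of a difference was 0.14 for the members and 0.24 for all features. The counts by family were 4 of 13 in the thioredoxin group (3 higher, 1 lower), 2 of 14 glutathione S-transferases (both lower), 1 of 4 genes of glutathione synthesis and reduction (higher), 2 of 6 in the group of catalase, dismutases, heme oxygenases and Idh1 (1 higher, 1 lower), 0 of 4 glutathione peroxidases and 0 of 3 peroxiredoxins. In bulk cord, fewer cells of a type and less RNA per cell cannot be told apart.

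**Figure D1:**
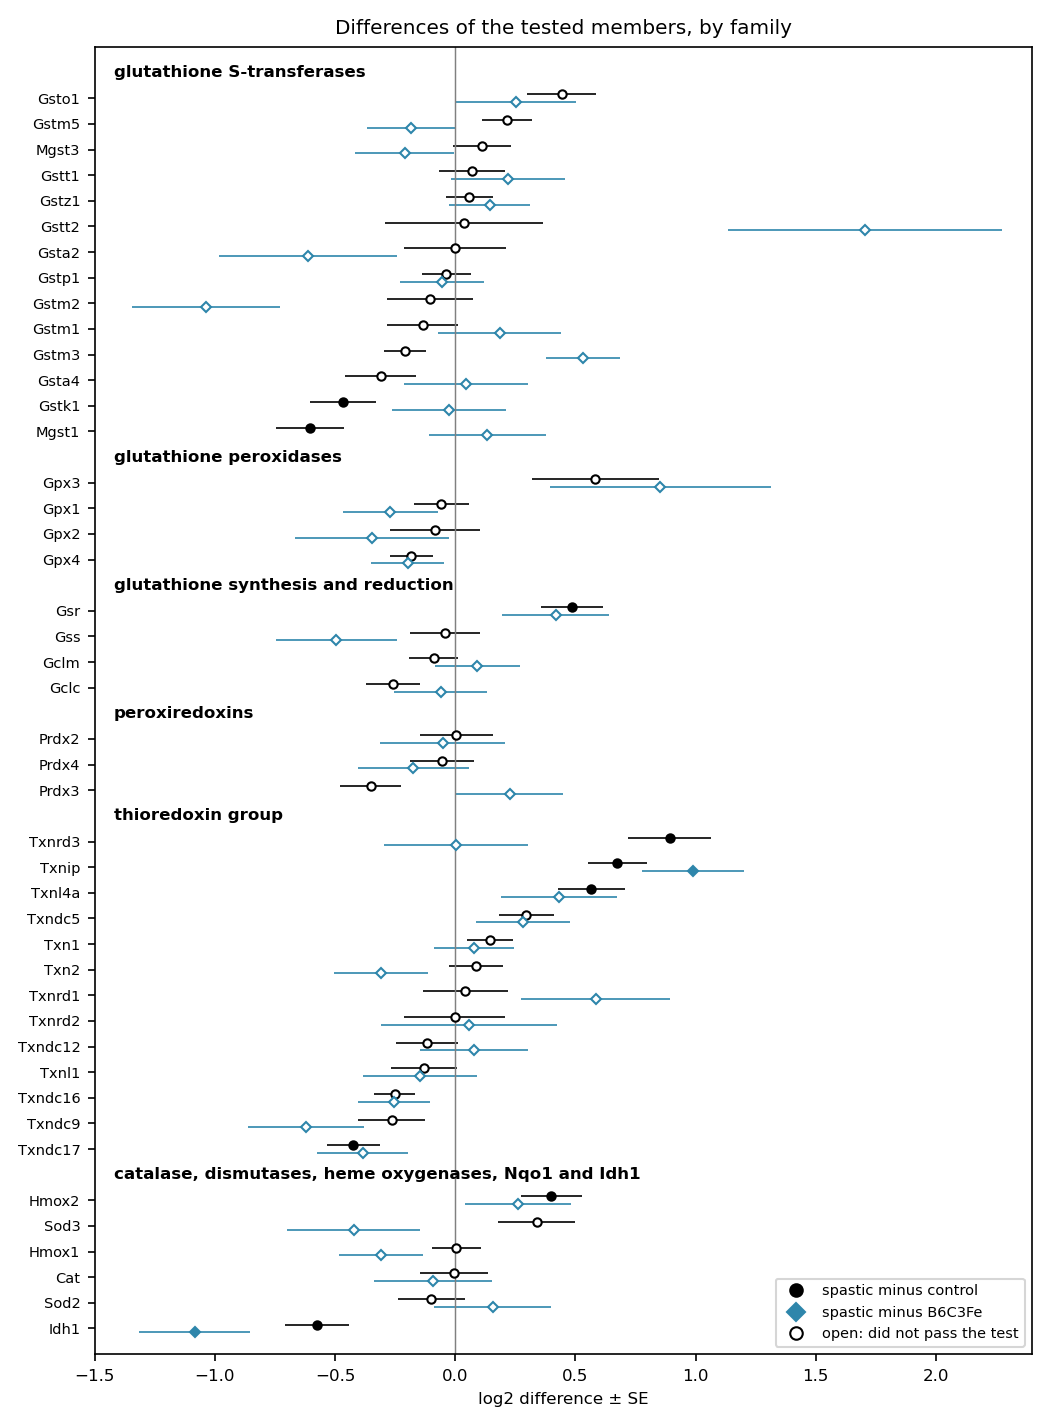
Log2 differences (x axis, ± SE) of the 44 tested members, grouped by family and ordered within it; circles are spastic minus control, diamonds spastic minus B6C3Fe, and filled symbols passed the test. Filled circles lie on both sides of 0, and the filled diamonds are Txnip and Idh1.

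Many genes of these families are known to be induced by the transcription factor NRF2 through the antioxidant response element, whose core was searched as TGACNNNGC on both strands of each RefSeq promoter window (GRCm38.p6, 250 bases before to 50 after a gene's start). A match was found for 6 of the 43 member genes with a window (Mgst1, Gclm, Txnrd1, Gsta3, Gstm5 and Txndc5), or 14.0%, against 3781 of 27025 genes in the table, also 14.0%. No window was given for Gclc, Gsr, Gsta4, Gstt2, Hmox1, Sod3, Txnl1 and Txnl4a, so these were not searched. Of these, Gsr and Txnl4a passed between spastic and control cords. Among the genes with a match, Gsta3 lay below the filter and was not tested, and Mgst1 was the one that passed in that comparison. The Mgst1 window with a match is shown with those of Gclm and Txnrd1, textbook targets of NRF2, with the matched bases in capitals. In all 3 windows the match is on the opposite strand. For Mgst1, Gclm and Txnrd1 it begins at position -56, -134 and -92 from the start used for that window. Mgst1 and Txnrd1 also have windows at other starts, and these hold no match. A match is a description of these letters and not evidence of binding.
Mgst1, chr6:138140277-138140576, plus strand: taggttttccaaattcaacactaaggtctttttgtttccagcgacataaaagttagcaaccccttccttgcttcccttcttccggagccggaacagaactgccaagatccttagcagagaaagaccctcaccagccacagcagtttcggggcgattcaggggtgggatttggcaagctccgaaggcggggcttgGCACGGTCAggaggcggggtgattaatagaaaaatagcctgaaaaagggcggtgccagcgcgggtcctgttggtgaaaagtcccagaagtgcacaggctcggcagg
Gclm, chr3:122245307-122245606, plus strand: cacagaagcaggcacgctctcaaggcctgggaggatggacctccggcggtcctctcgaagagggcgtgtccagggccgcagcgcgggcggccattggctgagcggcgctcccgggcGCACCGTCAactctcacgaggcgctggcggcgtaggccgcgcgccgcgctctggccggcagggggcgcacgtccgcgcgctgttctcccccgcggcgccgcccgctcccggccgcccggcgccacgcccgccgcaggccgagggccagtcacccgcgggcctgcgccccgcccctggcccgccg
Txnrd1, chr10:82858956-82859255, plus strand: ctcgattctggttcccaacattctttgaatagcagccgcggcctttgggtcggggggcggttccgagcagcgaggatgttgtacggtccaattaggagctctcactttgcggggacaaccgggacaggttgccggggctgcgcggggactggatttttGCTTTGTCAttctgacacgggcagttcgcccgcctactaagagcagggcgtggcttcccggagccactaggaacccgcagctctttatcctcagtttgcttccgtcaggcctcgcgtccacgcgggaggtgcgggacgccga

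In the thioredoxin group, Txnip rose in spastic cords. Txnip binds reduced thioredoxin and inhibits it, and it is also known to restrain glucose uptake. Its log2 intensity was 10.04, 9.91, 10.44, 10.69 and 10.02 in the spastic samples titled Spa1 and Spa2 (2 months), sev (3 months), 3+ months and Spa-M (6 months), against 9.47 in B6C3Fe and 9.62, 9.77, 9.36 and 9.59 in the 9-month female, 9-month male, 12-month female and 12-month male controls. Every spastic array lay above every control and B6C3Fe array, and the highest were sev and 3+ months, the 2 libraries that go against their titled sex. The difference was 0.68 on the log2 scale (SE 0.12, 1.60-fold, limma adjusted p = 0.00471) against controls and 0.99 (SE 0.21, adjusted p = 0.0396) against B6C3Fe; without those 2 libraries it was 0.50 against controls (adjusted p = 0.0822). The call against B6C3Fe was lost when any of 6 titled samples (the 12-month female or 9-month male control, or a spastic sample other than Spa2) was left out, with no sex term (0.75, adjusted p = 0.164) and with no variance trend (adjusted p = 0.0680). The tested probe set, 160547_s_at, has the suffix of a set whose probes several transcripts share. The other Txnip probe set, 160548_at, ran the opposite way, at 8.36 to 9.10 on the spastic, 9.14 to 9.29 on the B6C3Fe and 8.80 to 9.66 on the control arrays, with a difference of -0.30 against controls that did not pass (adjusted p = 0.330 with every probe set tested).

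Txnrd3, the thioredoxin glutathione reductase best known from testis, also rose against controls. The spastic samples stood, in the same order, at 10.93, 10.80, 10.47, 10.64 and 10.77, B6C3Fe at 10.56, and the controls at 10.18, 10.14, 9.70 and 9.20. No spastic array overlapped a control array, while B6C3Fe lay within the spastic range. The difference was 0.89 (SE 0.17, 1.86-fold, limma adjusted p = 0.00615) against controls and 0.00 (SE 0.30, adjusted p = 0.998) against B6C3Fe. The lowest control value was 8.45, on array a of the 12-month male, whose array b read 9.96, and among controls the 12-month samples lay 0.70 below the 9-month ones (adjusted p = 0.759). The other Txnrd3 probe set was at the floor on 4 of 6 spastic, 1 of 2 B6C3Fe and 6 of 8 control arrays, and both sets carry the suffix r, which marks relaxed rules of probe choice. The other reductases, cytosolic Txnrd1 and mitochondrial Txnrd2, had differences of 0.04 and -0.00 (adjusted p = 0.893 and 0.995), and so did the thioredoxins themselves, cytosolic Txn1 at 0.15 and mitochondrial Txn2 at 0.09 (adjusted p = 0.309 and 0.632).

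Among the thioredoxin-like proteins, Txnl4a rose and Txndc17 fell. Txnl4a has a thioredoxin fold but is a protein of the U5 small nuclear ribonucleoprotein that takes part in splicing, and it is not an antioxidant enzyme. It stood at 11.71, 11.37, 11.31, 11.83 and 11.26 in the spastic samples, 11.13 in B6C3Fe and 11.10, 10.94, 10.68 and 11.05 in the controls. The spastic samples were all above the controls, though single arrays overlapped, and the difference was 0.57 (SE 0.14, 1.48-fold, limma adjusted p = 0.0179). It did not pass without the 12-month female control (0.48, adjusted p = 0.0710) or the 9-month male control (0.55, adjusted p = 0.0514). Txndc17, a small cytosolic protein that thioredoxin reductase keeps reduced, stood at 9.80, 9.71, 9.54, 9.42 and 9.64 in the spastic samples, 9.94 in B6C3Fe and 10.10, 10.01, 9.91 and 10.10 in the controls. Its spastic samples were all below the controls, with a difference of -0.42 (SE 0.11, 1.34-fold lower, adjusted p = 0.0210). It did not pass without the 12-month male control (-0.38, adjusted p = 0.0643), the 9-month male control (-0.41, adjusted p = 0.0583) or the 3+ months sample (-0.37, adjusted p = 0.0550). The remaining relatives, Txndc5, Txndc9, Txndc12, Txndc16 and Txnl1, had differences between -0.27 and 0.30 that did not pass; Txndc16, of the endoplasmic reticulum, was nearest at -0.25 (adjusted p = 0.0593).

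**Figure D2:**
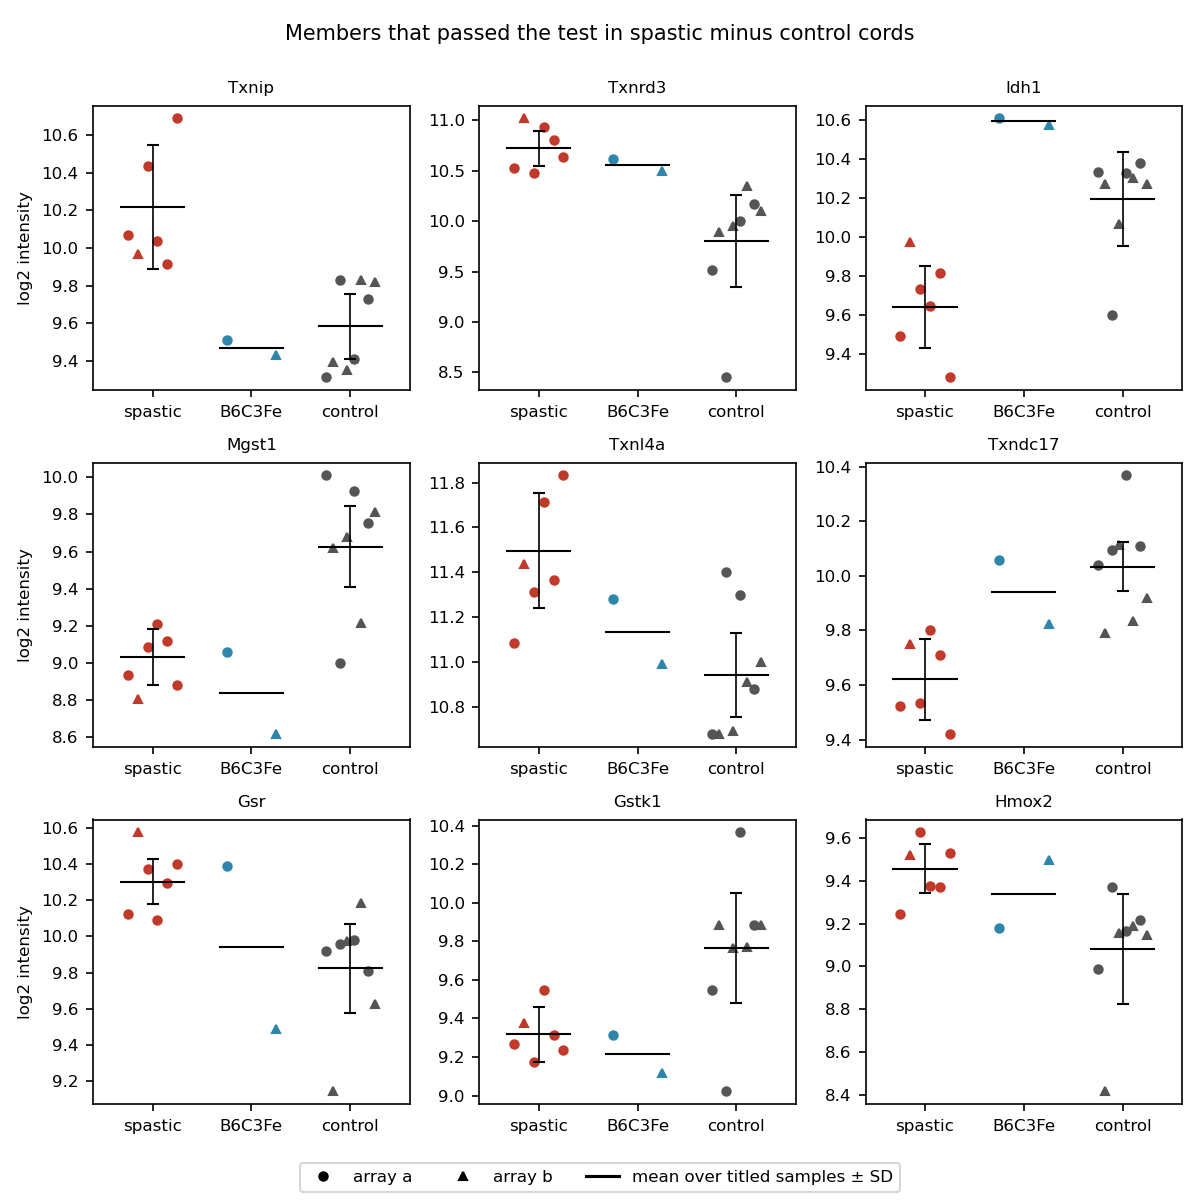
Log2 intensity (y axis) of the 9 members that passed the test between spastic and control cords, on 6 spastic, 2 B6C3Fe and 8 control arrays; circles are arrays a, triangles arrays b, lines the mean over titled samples and bars its SD (no SD for B6C3Fe, 1 sample). The spastic arrays clear all control arrays for Txnip and Txnrd3, and overlap them for the other 7.

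By array, the tested values of spastic and control cords did not overlap for 2 of the 44 members, Txnip and Txnrd3, or 4.55%, against 8.01% of all features. Against control and B6C3Fe arrays together this held for Txnip, 1 of 44, against 4.4% of all features.

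Among the glutathione S-transferases, Mgst1 and Gstk1 fell. Mgst1, a membrane-bound transferase of the endoplasmic reticulum and outer mitochondrial membrane that also reduces lipid peroxides, stood at 9.21, 9.12, 9.08, 8.88 and 8.87 in the spastic samples, 8.84 in B6C3Fe and 9.57, 9.78, 9.81 and 9.34 in the controls. The spastic samples were all below the controls and B6C3Fe was lowest, and the difference was -0.60 (SE 0.14, 1.52-fold lower, limma adjusted p = 0.0135) against controls and 0.13 (adjusted p = 0.786) against B6C3Fe. Without the 12-month female control it was -0.55 and did not pass (adjusted p = 0.0529). Gstk1, the transferase of mitochondria and peroxisomes, stood at 9.55, 9.31, 9.18, 9.24 and 9.32 in the spastic samples, 9.21 in B6C3Fe and 10.07, 9.88, 9.72 and 9.39 in the controls. Its 12-month male control lay within the spastic range, and the difference was -0.47 (SE 0.14, 1.38-fold lower, adjusted p = 0.0343) against controls and -0.03 (adjusted p = 0.962) against B6C3Fe. It did not pass without either 9-month control or without any spastic sample but Spa1, with differences from -0.49 to -0.39 and adjusted p from 0.0584 to 0.103.

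The other 12 transferases did not pass, with differences against controls between -0.31 and 0.44. The largest was Gsto1, a transferase with thioltransferase activity, at 9.43 to 10.12 on the spastic, 9.40 to 9.62 on the B6C3Fe and 8.93 to 9.64 on the control arrays (difference 0.44, limma adjusted p = 0.0512). Gstp1, the pi-class enzyme, had a difference of -0.04 (adjusted p = 0.827). The mu-class genes Gstm1, Gstm2, Gstm3, Gstm5 and Gstm6 lie together on chromosome 3 and are near-identical in parts, and several of their sets carry the suffix f or r, so signal cannot be assigned firmly to a single gene. For Gstm5 the 2 brightest sets disagreed in sign, 0.22 for 100630_f_at and -0.27 for 100629_at (adjusted p = 0.175 among the features tested, and 0.0696 with every probe set tested). Gstm3 on 97681_f_at read 11.03 to 11.46 on the spastic, 10.44 to 10.81 on the B6C3Fe and 11.15 to 11.65 on the control arrays; it was the member nearest to the threshold in B6C3Fe minus control, at -0.74 (adjusted p = 0.0678). Its other set, 97682_r_at, ran the opposite way in that comparison, at 0.40 (adjusted p = 0.705 with every probe set tested), and read 8.71 to 10.03 on the spastic, 9.69 to 9.93 on the B6C3Fe and 8.91 to 10.08 on the control arrays. The further set of Gstm1, 161633_r_at, had a difference of -0.19 against controls, near the -0.14 of the tested set, but read 10.44 to 10.48 on the B6C3Fe arrays, above the 9.28 to 10.06 on the spastic and the 9.52 to 10.18 on the control arrays. The dimmer set of Gstm2, 93009_at, read 7.23 to 7.88 on the spastic, 7.74 to 8.09 on the B6C3Fe and 6.35 to 7.89 on the control arrays. The 2 dimmest sets of Gstm5 spread widely within groups, 100631_r_at over 7.19 to 9.48 and 161722_f_at over 6.25 to 7.17 on the spastic arrays, against 7.08 to 9.62 and 5.93 to 8.16 on the control arrays. The second set of Mgst3 was at or near the floor throughout, at most 6.19.

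Of the genes that make and reduce glutathione, Gsr rose. It stood at 10.09, 10.29, 10.37, 10.40 and 10.35 in the spastic samples, 9.94 in B6C3Fe and 10.08, 9.72, 9.53 and 9.97 in the controls. The lowest spastic sample, Spa1, lay next to the highest control, the 9-month female, and the difference was 0.49 (SE 0.13, 1.40-fold, limma adjusted p = 0.0232). It did not pass without the 12-month female control (0.38, adjusted p = 0.0845), the 9-month male control (0.43, adjusted p = 0.0693) or the 3+ months sample (0.47, adjusted p = 0.0558), nor with every array fitted and the titled sample as a random block (0.49, adjusted p = 0.0591) or the letter as a replicate block (0.44, adjusted p = 0.0648), nor with no filter (adjusted p = 0.0508). The B6C3Fe arrays read 10.39 and 9.49, and the difference against B6C3Fe was 0.42 (adjusted p = 0.317). Gclc and Gclm, the catalytic and modifier subunits of the rate-limiting ligase, had differences of -0.26 and -0.09, and Gss, glutathione synthetase, -0.04 (adjusted p = 0.127, 0.576 and 0.869). The further Gss set, 162246_r_at, gave -0.10 (adjusted p = 0.682 with every probe set tested), at 8.40 to 8.77 on the spastic, 9.15 to 9.78 on the B6C3Fe and 7.72 to 9.31 on the control arrays.

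None of the 4 tested glutathione peroxidases passed. Gpx3, the secreted peroxidase of plasma, had the widest spread: 9.71, 10.02, 11.28, 11.72 and 10.61 in the spastic samples, 10.28 in B6C3Fe and 9.94, 10.25, 10.34 and 10.13 in the controls. The sev and 3+ months samples were highest and both 2-month samples lay within or below the control range, so the difference of 0.58 (SE 0.27) did not pass (limma adjusted p = 0.145). Gpx1, the cytosolic enzyme, Gpx2 and Gpx4, which reduces lipid peroxides in membranes, had differences of -0.06, -0.08 and -0.18 (adjusted p = 0.753, 0.785 and 0.166). Of the peroxiredoxins, mitochondrial Prdx3 was nearest to the threshold, at 11.19 to 11.54 on the spastic, 11.00 to 11.18 on the B6C3Fe and 11.20 to 12.06 on the control arrays (difference -0.35, adjusted p = 0.0750). Cytosolic Prdx2 had a difference of 0.00 on its tested set, but its set 99608_at divided the spastic samples, with 8.37, 8.70 and 8.46 in Spa1, Spa2 and 3+ months and 10.58 and 10.54 in sev and Spa-M, against 9.54 in B6C3Fe and 9.56 to 10.16 in the controls. The other Prdx2 set, 100330_at, was at the floor on every array. Prdx4, of the endoplasmic reticulum, had a difference of -0.06 (adjusted p = 0.805).

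Idh1, the cytosolic and peroxisomal isocitrate dehydrogenase that supplies NADPH to both systems, fell in spastic cords. It stood at 9.65, 9.82, 9.74, 9.28 and 9.73 in the spastic samples, 10.59 in B6C3Fe and 10.32, 10.33, 10.30 and 9.83 in the controls. The spastic samples were all below the other samples, although array a of the 12-month male control, at 9.60, lay within the spastic range. The difference was -0.57 (SE 0.13, 1.49-fold lower, limma adjusted p = 0.0132) against controls and -1.09 (SE 0.23, adjusted p = 0.0383) against B6C3Fe. The call against B6C3Fe was lost without any of the same 6 samples as for Txnip, at -1.22 to -0.96 (adjusted p = 0.0520 to 0.0902). It was also lost with no sex term (-0.95, adjusted p = 0.0588), with no filter on dim probe sets (adjusted p = 0.0596) and with no variance trend (adjusted p = 0.0680).

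Hmox2, the constitutive heme oxygenase, rose slightly. It stood at 9.37, 9.37, 9.63, 9.53 and 9.38 in the spastic samples, 9.34 in B6C3Fe and 9.18, 9.18, 8.70 and 9.27 in the controls. The 12-month female control was lowest, and the difference was 0.40 (SE 0.13, 1.32-fold, limma adjusted p = 0.0462); without that sample it was 0.29 (adjusted p = 0.147). It passed without the 9-month female control or the B6C3Fe sample, and not without any of the other 8 samples (adjusted p = 0.0696 to 0.147). Hmox1, the inducible form and a classic target of NRF2, read 10.35 to 10.71 on the spastic, 10.75 to 10.79 on the B6C3Fe and 10.26 to 10.77 on the control arrays (difference 0.00, adjusted p = 0.984). Sod2, of mitochondria, and Sod3, the extracellular dismutase, had differences of -0.10 and 0.34 (adjusted p = 0.656 and 0.161). Sod3 was 10.08, 10.21, 9.30, 9.90 and 10.32 in the spastic samples, 10.20 in B6C3Fe and 9.58, 9.55, 9.57 and 9.66 in the controls, so sev alone lay below the controls; without sev the difference was 0.51 and passed (adjusted p = 0.0205).

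For catalase, which breaks down hydrogen peroxide in peroxisomes, the 2 probe sets gave different answers. On the brighter and tested set, 161877_f_at, the samples read 10.05, 10.56, 10.71, 10.25 and 10.56 in spastic cords, 10.54 in B6C3Fe and 10.40, 10.55, 10.52 and 10.27 in controls, a difference of -0.01 (limma adjusted p = 0.978). On 160479_at they read 9.23, 9.15, 8.83, 8.59 and 8.97 in spastic cords, 9.93 in B6C3Fe and 9.96, 9.52, 9.78 and 9.59 in controls. Here all spastic arrays lay below all others, with a difference of -0.79 (SE 0.12, adjusted p = 0.00224) against controls and -1.20 (SE 0.21, adjusted p = 0.0242) against B6C3Fe, in the fit with every probe set tested. The suffix f marks probes shared within a sequence family, and 160479_at has no such suffix.

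**Figure D3:**
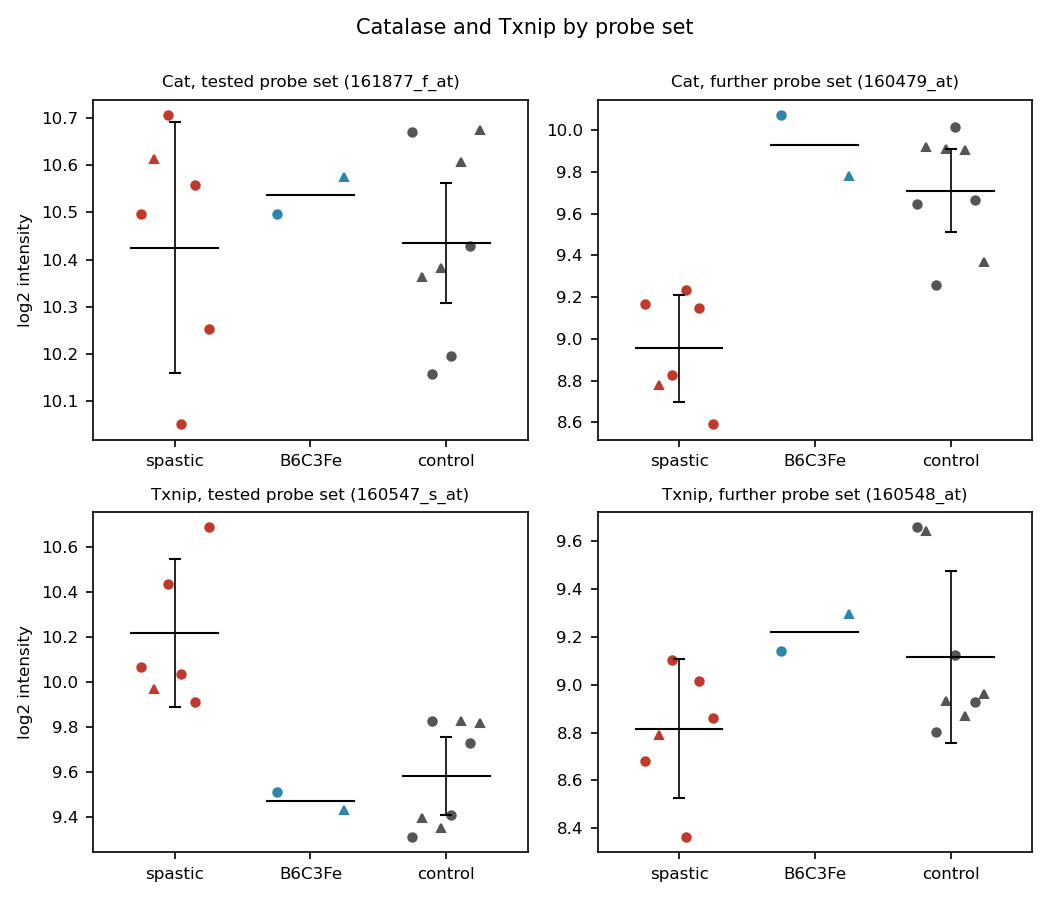
Log2 intensity (y axis) of catalase (top) and Txnip (bottom) on the tested probe set (left) and the further one (right), on spastic, B6C3Fe and control arrays; circles are arrays a, triangles arrays b, lines the mean over titled samples and bars its SD. For catalase the spastic arrays are lowest on the further set and mixed with the others on the tested one, and for Txnip they are highest on the tested set.

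Against B6C3Fe, 2 of the 44 members passed, Txnip and Idh1, or 4.55%, where the background was 2.05% of features called. Between B6C3Fe and controls 0 of 44 members passed by limma (8 at an unadjusted p under 0.05), where the background was 0.389%. These comparisons share samples with the one above, and B6C3Fe is a single titled sample assumed to vary like the others. Of the 9 genes that differed between spastic and control cords, Txnrd3, Mgst1 and Gstk1 had B6C3Fe at or near the spastic level, with differences in spastic minus B6C3Fe of 0.00, 0.13 and -0.03 and in B6C3Fe minus control of 0.89, -0.74 and -0.44 (adjusted p = 0.199, 0.188 and 0.409). Txnl4a, Txndc17, Gsr and Hmox2 had B6C3Fe minus control differences of 0.13, -0.04, 0.07 and 0.14, and those of Txnip and Idh1 were -0.31 and 0.51. Gstt2, a theta-class transferase, was near the floor in B6C3Fe, at 5.93 and 6.49, against 6.90 to 8.42 on the control arrays (difference -1.67, adjusted p = 0.204).

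Within the controls, 0 of 44 members passed between 12 and 9 months by limma (3 at an unadjusted p under 0.05), where the background was 0%, with 346 features at that unadjusted level. Between the spastic sample titled sev and the other spastic samples, 0 of 44 passed (2 at an unadjusted p under 0.05), where the background was 0.0156%. Here sev is 1 sample, assumed to vary like the others.

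The 7 genes below the filter were not tested; dim values had been raised to a floor of 5.93. Gsta1 and 1 of the 2 sets of Gstm6 were at the floor on every array. Nqo1, a quinone reductase and a common marker of NRF2 activity, read 6.93 to 7.60 on the spastic, 6.11 to 6.90 on the B6C3Fe and 7.32 to 8.51 on the control arrays on the set 94350_f_at. On its brighter set, 94351_r_at, it read 7.01 to 7.94 on the spastic, 7.60 to 7.77 on the B6C3Fe and 7.11 to 8.46 on the control arrays, so B6C3Fe was low on 1 set and not on the other. Gpx5 read 6.68 to 7.91 on the spastic, 5.93 to 7.88 on the B6C3Fe and 6.36 to 8.43 on the control arrays on 94692_at, and 6.24 to 7.39, 7.95 to 7.96 and 6.20 to 8.16 on 161986_f_at. Gsta3 read 5.93 to 6.87 on the spastic, 6.62 to 7.33 on the B6C3Fe and 5.93 to 7.25 on the control arrays. The brighter Mgst2 set read 5.93 to 7.30 on the spastic, 6.56 on both B6C3Fe and 6.40 to 7.65 on the control arrays, and its dimmer set reached 6.61 on the spastic and 6.84 on the control arrays. The other Gstm6 set reached 7.19 on the spastic and 7.37 on the control arrays and was at the floor in B6C3Fe, and Gpx7 reached 6.36 on the spastic and 6.25 on the control arrays.

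Genes around these systems were followed in lists by function, and their counts stand against the 19.8% of all features called between spastic and control cords. Of 7 tested genes of NADPH supply, 3 passed between spastic and control cords: Idh2, the mitochondrial counterpart of Idh1, at 0.69, and Tkt, transketolase of the pentose phosphate pathway, at 0.45, rose, while Me1, cytosolic malic enzyme, fell by 0.54 (limma adjusted p = 0.0361, 0.0386 and 0.00809). Of 12 tested regulators and further targets of NRF2, 5 passed: Mafk (1.13, adjusted p = 0.00157) and Nfe2l1 (0.43, adjusted p = 0.0234) rose, and Mafg (-0.61, adjusted p = 0.0301) and Blvra, biliverdin reductase (-0.45, adjusted p = 0.0423), fell. The fifth, Sqstm1, rose by 0.28 (adjusted p = 0.0402) and was named after its value was seen. Mafk and Mafg encode small Maf proteins, which pair with NRF2 on DNA, and they moved in opposite directions. Further sets of Mafg and Nfe2l1 gave -0.21 and 0.07 and did not pass. Mafk and Me1 passed in all 10 fits that left out a titled sample, Nfe2l1 in 6, Mafg in 4, Tkt in 3, Idh2 and Blvra in 2 each and Sqstm1 in 1.

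Of 7 tested genes of cysteine and glutathione turnover, Ahcy, which releases homocysteine, rose by 0.41 on 1 of its 3 sets (limma adjusted p = 0.0237), the other sets giving 0.10 and -0.01; it passed in 6 of 10 such fits. Of 2 tested oxidant-producing enzymes, monoamine oxidase Maoa fell (-0.38, adjusted p = 0.0467) and passed in 3 of 10. None of 6 tested glutaredoxins and repair enzymes and none of 3 metallothioneins passed in this comparison, and no gene of these 6 lists passed in the other 4 comparisons.

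Some markers of other cell types differed between the same groups. Of 3 measures of RNA quality, tested between spastic and control cords alone, 1 differed. The share of all features called was 19.8% in spastic minus control, 2.05% in spastic minus B6C3Fe and 0.389% in B6C3Fe minus control. The marker counts stand against these shares, and those of astrocytes and oligodendrocytes in spastic minus control lie near the first. Of 11 tested endothelial and mural markers 9 rose in spastic cords, and the summed intensity of the list was 9057 to 11396 on the spastic, 5357 to 5411 on the B6C3Fe and 4467 to 5891 on the control arrays, with 0 of the 14 measured genes at the floor throughout a group of arrays. Of 9 tested microglial markers 3 fell, the list summing to 9064 to 14238 on the spastic, 12094 to 12239 on the B6C3Fe and 13008 to 16283 on the control arrays. Of 9 astrocyte markers 2 fell, of 8 oligodendrocyte markers 1 rose and 1 fell, and of 10 neuronal markers 2 rose and 3 fell. Of 7 skeletal muscle markers 2 fell, of 8 meningeal and fibroblast markers 1 fell, and none of 5 blood markers and 1 Schwann cell marker passed. Against B6C3Fe, 4 of 8 oligodendrocyte markers were lower in spastic cords (list median -0.68), 2 of 11 endothelial and mural markers higher, 1 of 9 astrocyte markers lower and 1 of 5 blood markers higher. In B6C3Fe minus control 2 of 8 oligodendrocyte markers were higher (list median 0.77) and 1 of 5 blood markers lower. The log2 ratio of 3′ to 5′ control probe sets of Pcx averaged 2.38 in spastic samples, 1.78 in B6C3Fe and 1.73 in controls (spastic minus control 0.65, exact permutation p = 0.0238, 2-sided, over 126 arrangements of 5 against 4 samples). The same ratio of Gapdh averaged -0.31 in spastic samples, -0.33 in B6C3Fe and -0.25 in controls (exact permutation p = 0.770), and that of Actb -0.06 in spastic samples, -2.25 in B6C3Fe and 0.26 in controls (exact permutation p = 0.302 for spastic against control). By array the Actb ratio was -3.29 to -1.21 in B6C3Fe, below the -0.56 to 0.71 in spastic and -0.45 to 1.27 in control cords. Its part in the comparisons with B6C3Fe was not tested. The following fits bear on the antioxidant genes, and the part of the cell type markers in them was not tested. With the Pcx ratio as a covariate 0 of 44 members passed, along with 9 of all features, against 1270 without it. In that fit the difference was 0.43 for Txnip, -0.34 for Idh1, 0.28 for Gsr, 0.32 for Txnl4a, -0.37 for Mgst1 and -0.33 for Txndc17, smaller than as reported, and 0.87 for Txnrd3, -0.51 for Gstk1 and 0.35 for Hmox2, where 0.89, -0.47 and 0.40 were reported. Without the 2 spastic libraries that go against their titled sex 1 member passed, Sod3, along with 396 of all features. In a fit that joined B6C3Fe to the controls and took log2 age as a covariate, Txnip (0.82) and Idh1 (-0.83) passed. Txnrd3 (0.43) and Mgst1 (-0.30) did not, nor did Txnl4a, Txndc17, Gsr, Gstk1 and Hmox2. The only non-spastic sample under 9 months in that fit is B6C3Fe, so genotype and age still cannot be told apart.

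**Figure D4:**
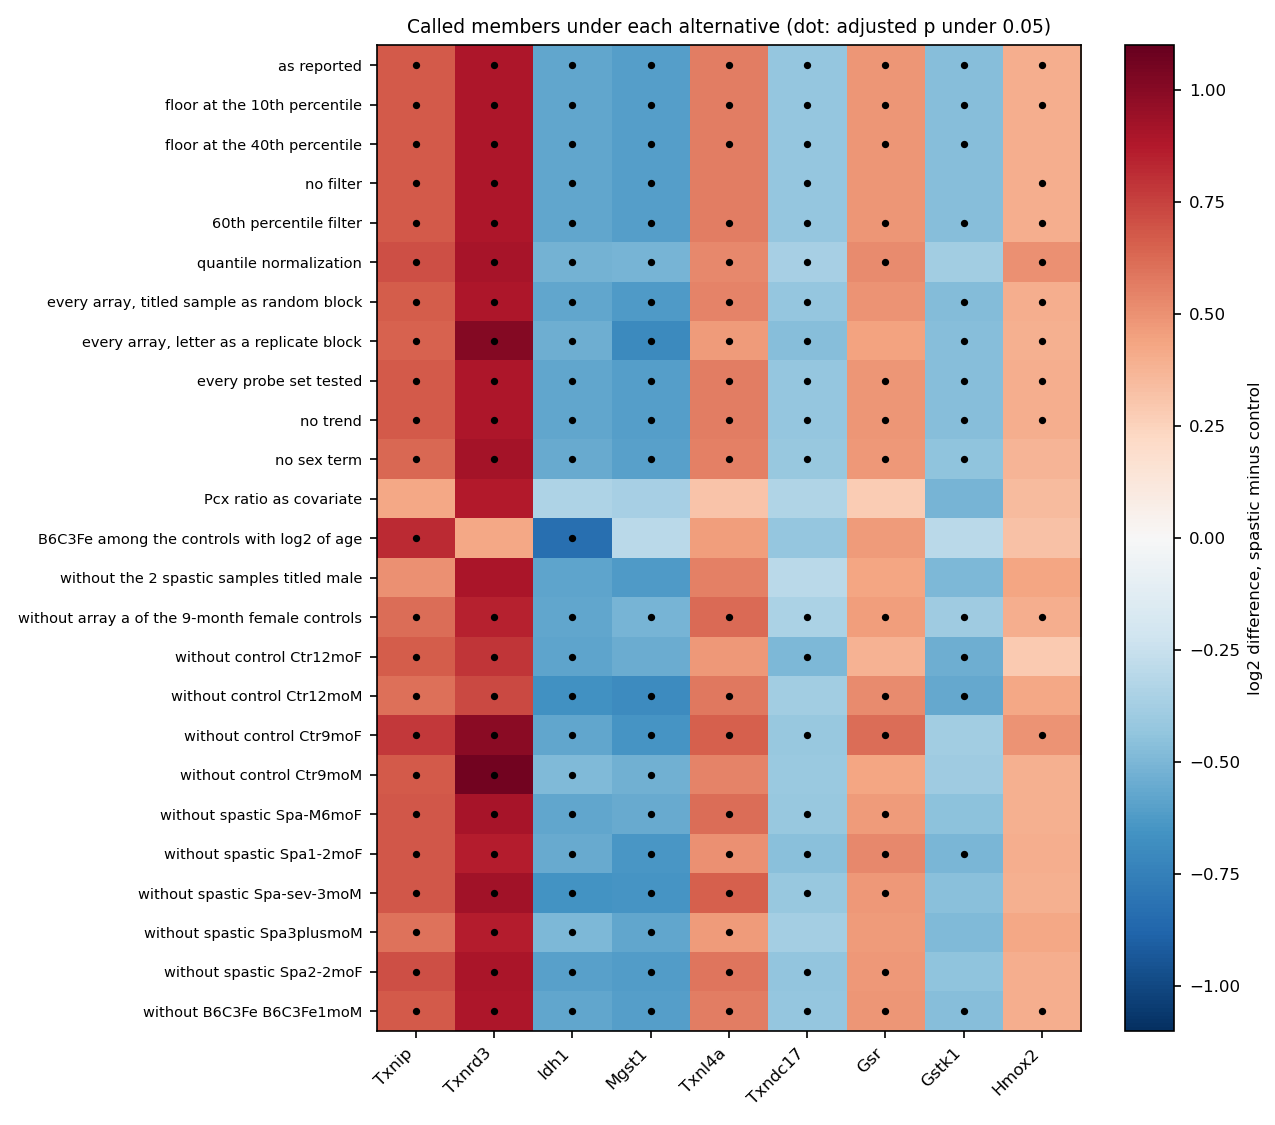
Log2 difference of spastic minus control (colour) for the 9 members that passed, as reported (top row) and under each of 24 alternatives; a dot marks an adjusted p under 0.05. The signs on the tested probe sets are the same in every row. No dot remains with the Pcx ratio as covariate or without the 2 spastic samples titled male.

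Across the 24 alternatives, Txnip and Idh1 passed in 22 each and Txnrd3 in 21, and each of these 3 passed in all 10 fits that left out a titled sample. Mgst1 passed in 20, Txndc17 and Txnl4a in 18 each, Gsr in 15, Gstk1 in 13 and Hmox2 in 11. On the tested probe sets, no difference of these 9 genes changed sign in any alternative. The second Txnip set, described above, ran the opposite way.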

How the data were processed

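The authors deposited 1 table of linear intensity values, with 12488 probe sets on 16 arrays; the software that made it is not stated in any label or header read here. The mean of the deposited intensities after trimming 2% at each end was 800.4 to 800.5 on every array, so the deposited intensity values were treated as scaled before deposit. The median per array was 289 to 383.6. Values below the 20th percentile of all values (60.9, log2 5.93) were raised to it, which affected 14.7% to 24.1% of values per array, and log2 was taken; this understates differences of dim genes. The 66 control probe sets were kept out of the fits across features and served for the RNA quality ratios. Names came from GEO's platform annotation (10833 probe sets with 1 symbol, 396 with several, 1193 with none; 10817 matched RefSeq GRCm38.p6 by Entrez ID, 0 changed). Probe sets whose mean log2 value exceeded the 40th percentile of such means were tested, the brightest per gene, 6427 in all. Arrays of a title were averaged to 10 samples. The fit was limma 3.58.1 (R 4.3.3) with group and titled sex, trended eBayes and Benjamini-Hochberg adjustment. It was tested on simulated data, with changes larger than the differences of the members that passed between spastic and control cords. That run does not bear on differences of their size. The number of arrays limits precision. Values of titled samples, means where a title had 2 arrays, were named for every member that passed between spastic and control or B6C3Fe cords. The other members were named by range and count, and of each list the genes that passed, at most 4 by size. Gpx3, Sod3, Cat, Prdx2, Gsto1, Gstm3, Gstt2 and other single members were described after their values were seen. The members, lists and tests were chosen with earlier results of these data known.

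No title says that the letters a and b pair samples or mark a batch. Deviations from group means of arrays with the same letter in different groups had a median correlation of 0.01 over 38 pairs. Those with different letters had -0.01 over 38. Most spastic arrays carry the letter a, so their group mean holds most of any letter effect, and this check cannot decide whether there is one.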

Additional observations from a re-analysis of the deposited data

Results flagged for a closer look

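Over the 44 tested members, each of the spastic and control groups was examined for a sample standing far from the rest, 88 groups in all, and 3 had such a sample; chance gives about 1 in 20 groups. In the 12-month female controls Hmox2 was at 8.70, where the other controls were at 9.18 to 9.27. In the 12-month male controls Idh1 was at 9.83, where the other controls were at 10.30 to 10.33. In the spastic sample titled Spa-M, Gstm1 was at 14.04, where the other spastic samples were at 13.42 to 13.52.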

How the results depend on the processing

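Other settings were other floors, other filters, quantile normalization, a random block for the titled sample, every probe set, no trend and no sex term. A further one left out array a of the 9-month female control. The count of members passing between spastic and control cords was 9, and 7 to 11 under these (1068 to 1500 of all features). It was 14 with the letter as a replicate block (1818 of all features, against 1270 as reported), 0 with the Pcx ratio as covariate (9), 2 with B6C3Fe joined to the controls and log2 age added (701), 1 without the 2 spastic samples titled male (396), and 4 (without the 9-month male control) to 9 when each titled sample was left out, with 5 without the 3+ months sample (723 to 1273 of all features). Against B6C3Fe the count of 2 became 4 with the replicate block (515 of all features, against 132) and 0 with no trend, with no sex term, with the Pcx ratio or without the 2 spastic samples titled male, and it was 0 (without either of 2 controls, the 12-month female and the 9-month male, or any of 4 spastic samples, all but Spa2) to 3 when each sample was left out. Between B6C3Fe and controls the count of 0 became 5 with the replicate block (525 of all features, against 25) and 1 with no filter, with a random block, with no sex term or with array a of the 9-month female control left out, and stayed at 0 when each sample was left out. For 12 against 9 months and for sev it was 0 in every alternative run. The causes were not tested. No title says that the letters pair samples, so the replicate block is no paired design. That fit also counted arrays a and b of a title as independent samples. Its p-values therefore do not measure the spread between titled samples, and its higher counts cannot be set beside the others. No member that passed as reported changed direction on its tested probe set.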
